A study of Mus musculus with 76 samples.

Results

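The regions described here were the CTCF-bound sites of the embryonic mouse diencephalon that lay away from protein-coding gene starts and had no H3K27ac or H3K4me3 peak, marks of active chromatin. Peaks from the 3 wild type CTCF lists at E17.5 (a late stage of embryonic development) were merged at 1 bp of overlap, which gave 85858 regions. Of these, 51511 (60.0%) held a peak in all 3 lists, 39046 of those were over 5 kb from every protein-coding gene start, and 30044 (35.0% of the merged regions) overlapped no H3K27ac or H3K4me3 peak in any wild type E17.5 list. These 30044 regions are called unmarked distal sites below. The other sites called in all 3 lists fell into 8140 distal sites with H3K27ac, 862 distal sites with H3K4me3 alone and 12465 sites within 5 kb of a protein-coding start.

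The study compared wild type C57BL/6J mice with mice of the same background homozygous for a human sequence containing the enhancer hs754, which replaces its mouse counterpart on chromosome 13. Chromatin immunoprecipitation (ChIP-seq) of H3K27ac, H3K4me3 and H3K27me3 was done on diencephalon of both genotypes at E11.5 (2 replicates of 6 pooled embryos each) and E17.5 (3 replicates of 3 pooled embryos each), CTCF was profiled at E17.5 alone, and RNA was sequenced from 4 replicates per genotype and day. Each replicate came from 1 litter, so a value is an average over every cell type of the dissected tissue, and in such bulk samples fewer cells of a type cannot be told apart from less signal per cell. The lot of H3K27ac antibody used also recognises acetylated lysine 5 of histone H2B, so an absent H3K27ac peak here means an absent peak for either mark.

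CTCF is a zinc finger protein that binds a long, directional DNA motif. It is known for halting the cohesin complex as it extrudes chromatin loops, which places CTCF at the anchors of loops and at the boundaries of topological domains, often as pairs of motifs that point toward each other. H3K27me3 is the histone mark of Polycomb repression and forms broad domains over silent developmental regulators such as the Hox genes. At some of these domains CTCF sites are known to limit the spread of the mark into neighbouring active chromatin.

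Sequences of single sites are printed as examples. The 40 bases printed here surround the best match to the 12-base core of the CTCF motif, on the strand of the match and in the GRCm39 assembly (the same assembly as mm39), with the core in capitals. The first 3 are from the sites with the highest fold enrichment, and the other 5 lie at edges of H3K27me3 domains that are described further down. All were picked among sites outside exons with at most 2 mismatches to the core on 1 strand, so each had to show it. Of all unmarked distal sites, 13.1% had 3 mismatches in the best match and 2.97% had 4 or more.
Site near Asic2, chr11:81887167-81887206, plus strand: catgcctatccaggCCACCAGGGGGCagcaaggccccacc
Site near Rbm19, chr5:120240983-120241022, minus strand: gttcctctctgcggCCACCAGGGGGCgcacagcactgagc
Site near Crybb3, chr5:113247562-113247601, plus strand: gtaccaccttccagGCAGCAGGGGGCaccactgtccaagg
Site near Dbx1, chr7:49266162-49266201, plus strand: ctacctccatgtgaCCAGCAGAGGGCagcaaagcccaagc
Site near Pax7, chr4:139586150-139586189, minus strand: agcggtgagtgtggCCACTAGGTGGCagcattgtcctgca
Site near Pdx1, chr5:147268521-147268560, plus strand: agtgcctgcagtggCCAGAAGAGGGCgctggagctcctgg
Site near Shh, chr5:28656355-28656394, plus strand: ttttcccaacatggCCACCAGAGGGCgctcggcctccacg
Site near Evx2 and the HoxD cluster, chr2:74465953-74465992, plus strand: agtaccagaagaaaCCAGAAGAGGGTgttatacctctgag
The sites near Asic2, Rbm19, Dbx1, Pax7 and Shh matched the core with 0 mismatches, those near Crybb3 and Pdx1 with 1, and the one near Evx2 with 2.

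Across all unmarked distal sites, 17512 of 30044 (58.3%, exact 95% confidence interval 57.7 to 58.8) held the core with at most 1 mismatch within 200 bp centred on the summit, and 4940 (16.4%) held it with none. The same search of 238106 windows of the eligible genome (sequenced positions over 5 kb from protein-coding starts and outside active peaks) found a match in 1.47%, and a perfect one in 0.0748%. The core was found in 44.5% of distal sites with H3K27ac, 57.9% of those with H3K4me3 alone and 36.7% of sites near a gene start, so the unmarked and the H3K4me3 sites had the higher shares. Among sites one base away from the consensus, the changed base was position 5 of the core in 44.1%, position 12 in 16.1% and position 1 in 11.6%, whereas position 2 was changed in 0.105%. Matches were about evenly placed on the strands, with 8611 on the plus and 8655 on the minus strand.

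The DNA of the unmarked distal sites was less rich in GC and CpG than that of the other CTCF classes. Their median GC content over the same 200 bp was 46.5%, against 51% with H3K27ac, 53% with H3K4me3 alone, 55% near gene starts and 41% in eligible windows. They held on average 2.23 CpG dinucleotides, against 4.98, 7.24 and 9.31 in the other classes and 1.497 in eligible windows. A GC content of at least 50% with an observed-to-expected CpG ratio of at least 0.6, as in CpG islands, was found in 0.865% of the unmarked distal sites and in 11.2% of those with H3K27ac. H3K4me3 is itself a mark of CpG islands, so the choice of sites without it bears on these shares.

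Column 7 of the peak lists holds the fold enrichment of a peak over its local background, and it spanned a wide range among these sites. Its median was 12.1, 9.11 and 9.97 in wild type replicates 1, 2 and 3 (10.4 ± 1.53, SD, n = 3), with interquartile ranges of 7.25 to 24.6, 5.59 to 18.7 and 6.03 to 20.4. Since the wild type peaks chose the sites, these values are a description. In the 3 humanized lists, which did not enter the choice, the medians over the sites called there were 10.7, 10.7 and 10.2 (10.5 ± 0.299, SD, n = 3).

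**Figure D1:**
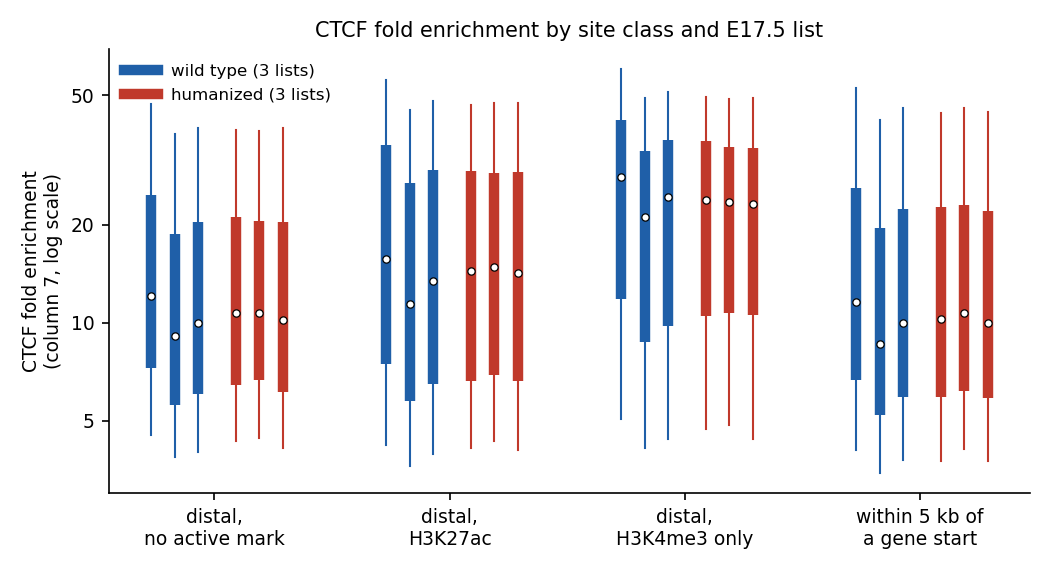
CTCF fold enrichment (column 7, log scale) in each E17.5 list for the 4 classes of CTCF sites, with the median as a point, the interquartile range as a thick bar and the 5th to 95th percentile as a thin line. Unmarked distal sites had medians of 9.11 to 12.1 in the wild type lists and 10.2 to 10.7 in the humanized lists, below those of the H3K27ac and H3K4me3 classes in every list.

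Distal sites with H3K27ac had wild type medians of 15.7, 11.4 and 13.4 and humanized medians of 14.4, 14.8 and 14.2. Those with H3K4me3 alone had the highest medians, at 28.0, 21.1 and 24.3 in wild type and 23.8, 23.5 and 23.2 in humanized lists. In the humanized lists the median of the unmarked distal sites differed from that of the H3K27ac sites by -3.94 ± 0.210 (SD, n = 3) and was lower in 3 of 3 lists (exact sign-flip permutation test over lists, two-sided, p = 0.25, the smallest that 3 lists allow). Against sites near gene starts, whose humanized medians were 10.3, 10.7 and 9.96, the difference was 0.221 ± 0.218 and had the same sign in 2 of 3 lists (exact p = 0.5).

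Fold enrichment went along with the motif and with the width of the called region. Sites with a perfect core had median fold enrichments of 24.6, 18.95 and 20.3 in the wild type lists, sites with 1 mismatch 13.3, 9.96 and 10.9, and sites with 3 mismatches 7.78, 6.21 and 6.49. In the highest quartile of fold enrichment (21.2 to 77.5) the core was found with at most 1 mismatch in 77.2% of sites and the median region was 935 bp wide. In the lowest quartile (1.59 to 6.28) the corresponding values were 40.9% and 360 bp. The sites of the highest quartile were also closer to genes, with a median of 31.9 kb to the nearest protein-coding start against 46.4 kb in the lowest.

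**Figure D2:**
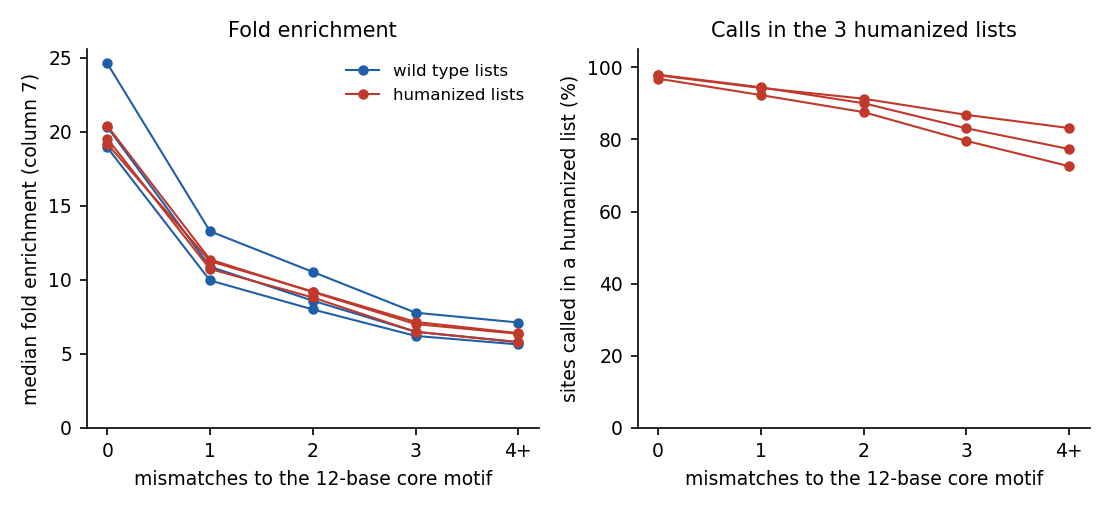
Left, median CTCF fold enrichment (column 7) of unmarked distal sites in each E17.5 list by the number of mismatches in the best core match. Right, the percentage of these sites called as a peak in each humanized list, which fell from 96.8 to 97.9% of sites with a perfect core to 72.6 to 83.1% of sites with 4 or more mismatches.

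Named sites at both ends of the range show how variable single values were. The site with the highest median, chr11:81886740-81887626, lay in a long non-coding RNA gene 27.9 kb from the start of Asic2, an acid-sensing ion channel, and reached 42.3, 77.5 and 79.0 in the wild type lists and 71.4, 58.6 and 81.7 in the humanized lists. The second, chr5:120240314-120241619, was intergenic and 13.5 kb from Rbm19, an RNA-binding protein of ribosome assembly, with 85.5, 76.8 and 37.6 in wild type and 42.9, 70.8 and 55.3 in humanized lists. In each of these sites the replicates of 1 genotype differed by more than the genotypes did.

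The other 8 of the 10 highest sites had wild type medians from 71.5 to 75.3. Sites near Crybb1 (chr5:112357653-112358932, intergenic) and Crybb3 (chr5:113247065-113248466, in an intron), genes of lens crystallins, reached medians of 74.1 and 72.9. Sites near the potassium channel gene Kcnk18 (chr19:59227386-59228843) and near the DNA topoisomerase gene Top1 (chr2:160438553-160440360, in a long non-coding RNA gene) reached 73.6 and 71.5. The remaining 4 lay in an exon of the retinol dehydrogenase gene Rdh13, in an intron of Niban2, and near Phlda3 and the keratin gene Krt78. All 10 were called in all 3 humanized lists.

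The lowest sites were of another kind. The 3 lowest had median fold enrichments of 1.59, 1.62 and 1.83, and each had 3 mismatches in its best core match. The first lay at chr11:108902578-108902849 in a long non-coding RNA gene 91.5 kb from Axin2, and the other 2 lay close together, at chr17:40158947-40159660 and chr17:40154239-40157639, 102.3 and 105.2 kb from Esp38, a gene of the exocrine gland-secreting peptides. These 3 were CpG-dense, with 19, 21 and 22 CpG dinucleotides in 200 bp, and the last was 3401 bp wide with a GC content of 71%. All 3 were still called in humanized replicates 2 and 3. The next 2, at chr2:30681751-30682417 near 1700001O22Rik and at chr3:147487510-147487960, 930 kb from Ttll7, had medians of 2.42 and 2.60 and were called in 0 and 1 of the humanized lists.

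Most of the sites were found again in the humanized mice. Positions downstream of the human insert are shifted on chromosome 13 in the humanized genome, so the 28833 sites on other chromosomes were compared. Of these, 92.8%, 89.6% and 91.9% overlapped a peak in humanized replicates 1, 2 and 3 (91.4% ± 1.65, SD, n = 3). A peak was present in all 3 humanized lists at 24117 sites (83.6%), in 2 at 2667 (9.25%), in 1 at 1386 (4.81%) and in none at 663 (2.30%). Among regions of any class merged over both genotypes and called in all 3 wild type lists, the corresponding counts were 41658, 4367, 2266 and 1089. The 663 sites were weak in wild type, with a median fold enrichment of 4.59 and a highest of 7.25. In the lowest quartile of fold enrichment 73.2%, 63.3% and 70.8% of sites were called in the humanized lists, and in the highest quartile 100% were. The share called differed from that of distal sites with H3K27ac by -1.15 ± 0.778 percentage points and was lower in 3 of 3 lists (exact sign-flip permutation test, p = 0.25, the smallest possible). Mean shares called were 92.6% for distal H3K27ac sites, 96.2% for those with H3K4me3 alone and 91.9% for sites near gene starts. A high share called was thus common to all classes.

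No site that could be tested was called different between genotypes in fold enrichment. Over the 41658 CTCF regions outside chromosome 13 called in all 6 lists, limma on log2 column 7, each list centred on its median, called 0 regions (0%) at a Benjamini-Hochberg adjusted p of 0.05. Among the 24077 unmarked distal sites tested, the fit called 0, while the unadjusted p was under 0.05 at 1107 (4.60%), against 1953 of all regions (4.69%). The smallest adjusted p over all regions was 0.979. The log2 difference (humanized over wild type) of the unmarked distal sites had a median of 0.01 with 5th and 95th percentiles of -0.42 and 0.44, and the median standard error of a site was 0.24. The fold enrichments carry no read counts, so the precision of a single site comes from the 3 replicates of a genotype alone.

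The values just inside and outside the limits of the rule give its edges. The closest accepted site was 5001 bp from a protein-coding start and the closest rejected one 5000 bp, 3549 accepted sites lay within 10 kb of a start, and 3910 sites without active marks lay within 5 kb. Another 7789 distal regions without active marks had a peak in only 2 of the 3 wild type lists, with a median over regions of their highest fold enrichment of 5.11, against 12.8 for the accepted sites. A further 13767 were called in 1 list only, 9716 of them in replicate 1, which also had the most peaks of the 3 lists (78661 against 61582 and 64284).

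The lists of active marks that were not used in the choice show how far the absence of marks extended. In the E17.5 humanized lists, H3K27ac peaks overlapped 0.510%, 0.475% and 0.118% of the sites outside chromosome 13, and H3K4me3 peaks 0.128%, 0.0347% and 0.0763%. At E11.5 the shares were higher, between 0.815% and 1.002% for H3K27ac and between 0.437% and 0.486% for H3K4me3 over the 4 lists of each mark. The rule selected for absence of these marks at E17.5, so no difference between the days is drawn from this order. E11.5 H3K27ac peaks overlapped 29.2 to 32.1% of distal H3K27ac sites, 3.27 to 4.48% of those with H3K4me3 alone and 42.6 to 44.9% of sites near gene starts. H3K27ac was present in both wild type E11.5 lists at 154 sites (0.513%). These 154 sites had a median fold enrichment of 11.3 for CTCF, a core match in 54.5% and a median GC content of 50.5%, and 8.44% of them lay inside an E17.5 H3K27me3 domain.

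Along the chromosomes, neighbouring unmarked distal sites were a median of 36.7 kb apart (interquartile range 11.9 to 91.1 kb), and 13.1% of the gaps were under 5 kb. The nearest CTCF site of any class was a median of 10.3 kb away. Of the neighbours on either side, 65.7% were another unmarked distal site, although such sites made up 58.3% of the sites called in all 3 lists. Sites near gene starts made up 17.7% of the neighbours and 24.2% of the sites. The shares with H3K27ac were 14.9% and 15.8%. Every other class also neighboured its own class more often than its share of sites. The values were 29.0% against 15.8% for distal H3K27ac sites, 4.41% against 1.67% with H3K4me3 alone and 46.4% against 24.2% near gene starts.

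Uninterrupted series of unmarked distal sites, with no CTCF site of another class between them, numbered 10307 and had a median of 2 sites. A series held 1 site in 3778 cases and 10 or more in 300, and those 300 held 3748 sites (12.5%). The longest held 38 sites over 0.922 Mb at chr5:127577005-128499353, a span with 2 protein-coding starts. The next held 26 sites over 0.887 Mb at chr5:141449379-142336554, with 0 starts.

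The densest cluster had 17 sites within 100 kb, from chr5:149581707 to 149672320, next to the heat shock protein gene Hsph1 and the glycosyltransferase gene B3glct. The next clusters held 13 sites in 100 kb at chr7:26938305, near Cyp2t4 and the oxygen sensor gene Egln2, and 12 sites at chr2:168684560, near Sall4 and Zfp64. At the other extreme, 185 gaps were over 1 Mb. The widest, 11.4 Mb at X:23679647-35077038, held 48 protein-coding starts, 0 CTCF sites of another class and 7.03% unsequenced bases, and its first genes were Tesl1, Gm5934 and Gm4297. The second, 5.92 Mb at chr7:6691951-12608381, held 72 starts, among them the imprinted genes Zim1, Peg3 and Usp29 and several zinc finger genes, and 17 CTCF sites of other classes. The third, 5.22 Mb at X:114306240-119528358, held 8 starts and 4 other sites. The authors removed reads that mapped to several places, and the part of this step in the gaps was not tested.

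The directions of the core in neighbouring sites depended on their distance. In 10194 pairs of neighbours with a core match on 1 strand each, 22.8% pointed toward each other (convergent), 51.6% pointed the same way (tandem) and 25.5% pointed apart (divergent). At gaps of 100 to 500 kb, the convergent share was 31.5% and the divergent 19.8% of 1789 pairs. At gaps of 5 to 20 kb the order was the opposite, with 19.1% convergent and 29.2% divergent of 2425 pairs. Above 500 kb the 176 pairs were convergent in 27.8% and divergent in 18.2%. These shares are a description, because a site enters 2 pairs.

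**Figure D3:**
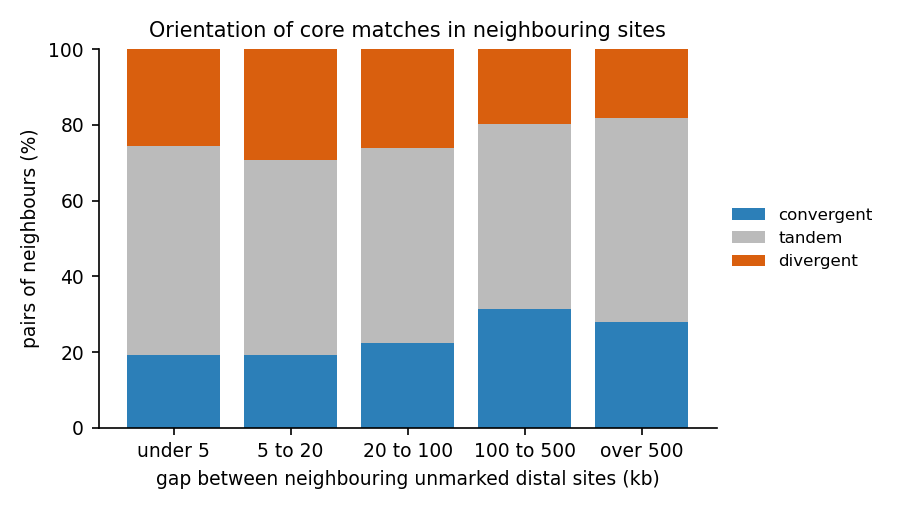
Percentage of neighbouring unmarked distal sites with convergent, tandem or divergent core matches by the gap between them in kb, for 1508, 2425, 4296, 1789 and 176 pairs from the shortest gaps to the longest. Convergent pairs rose from 19.4% under 5 kb to 31.5% at 100 to 500 kb, and divergent pairs fell from 25.5% to 19.8%.

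Although the rule kept them over 5 kb from gene starts, the unmarked distal sites were placed in gene-rich parts of the genome. The median number of protein-coding starts within 500 kb was 8 (interquartile range 4 to 15, mean 11.52), against 4 (mean 7.15) around eligible positions. Distal sites with H3K27ac had 9 (mean 12.1) and sites near gene starts 16. The nearest start was a median of 39.8 kb away, compared with 93.3 kb for eligible positions and 47.1 kb for distal H3K27ac sites. No start lay within 500 kb at 3.35% of the sites and at 13.4% of eligible positions.

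The density of sites rose with the number of surrounding genes, from 3.16 per eligible Mb where no start lay within 500 kb, through 7.52 at 1 to 4 starts, 15.6 at 5 to 9, 21.0 at 10 to 19 and 24.7 at 20 to 39, to 28.5 at 40 or more. The share with a core match also went up, from 43.3% to 64.5%. Median fold enrichment in wild type replicate 1 was 9.18 in the gene-free parts, 10.9 at 1 to 4 starts and 12.6 at 5 to 9, and then stayed between 12.8 and 13.04. Density thus went on rising in the bins in which fold enrichment no longer did.

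**Figure D4:**
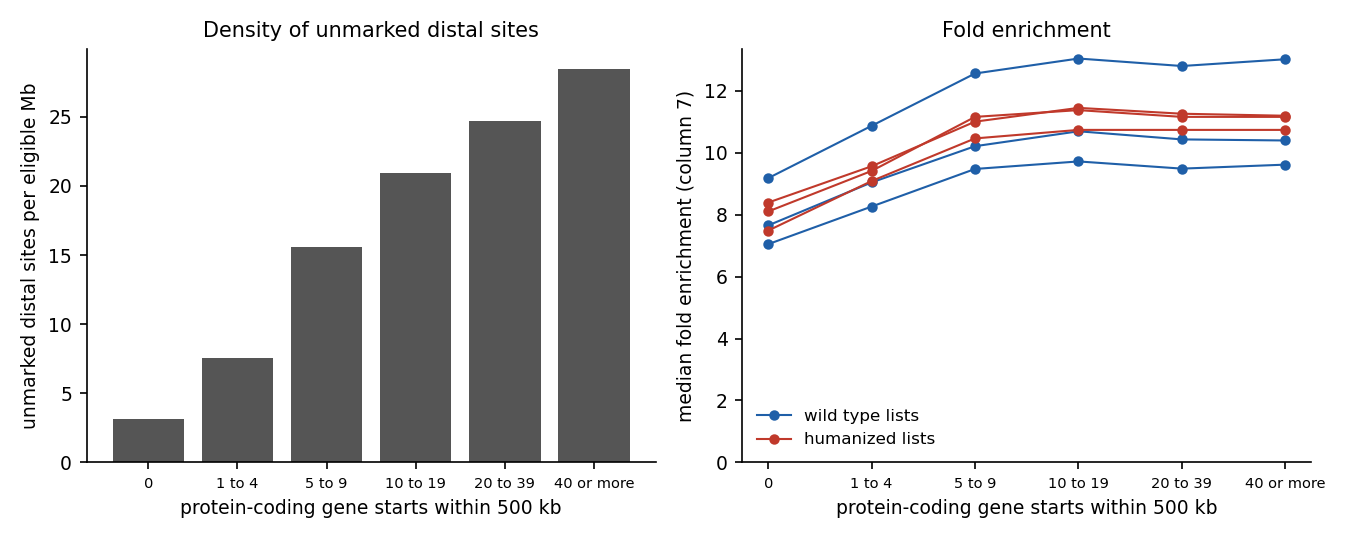
Left, unmarked distal sites per Mb of eligible genome by the number of protein-coding gene starts within 500 kb. Right, their median CTCF fold enrichment (column 7) in each of the 6 E17.5 lists. Density increased over all 6 bins, from 3.16 to 28.5 per Mb, whereas fold enrichment levelled off from 5 to 9 starts onward.

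Autosomes differed largely in the same sense, with exceptions. Density was 17.0 sites per Mb on chromosome 11, 15.7 on chromosome 5, 9.58 on chromosome 3 and 4.37 on chromosome X, and 4 sites lay on chromosome Y. Chromosome X had 5.98 genes per Mb, more than chromosome 12 with 5.47, where the density was 10.2 sites per Mb. Chromosome 7 had the most genes, at 14.3 per Mb, and 12.6 sites per Mb, whereas chromosome 5 had 8.49 genes per Mb. Over the 19 autosomes, sites per Mb and genes per Mb had a Pearson r of 0.728 and a Spearman rho of 0.861, given as a description since the chromosomes share the same libraries. Within the annotation, 48.1% of the sites were in introns of protein-coding genes, 6.47% in their exons, 15.5% in long non-coding RNA genes outside them and 29.9% elsewhere. The corresponding shares of eligible positions were 34.7%, 3.52%, 16.1% and 45.6%. The farthest sites from any start were 2625 kb from the protocadherin gene Pcdh9 at chr14:91503064-91503346, 2544 kb from Pcdh20 at chr14:91252210-91252513, and 2424 kb from the cadherin gene Cdh20 at chr1:102272084-102272346. Their wild type fold enrichments were low, from 3.82 to 6.32 over the 9 values.

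H3K27me3, which the rule did not use, was compared next. Peaks of each list were joined across gaps of up to 3 kb, and joined stretches of at least 10 kb were taken as domains. Within 5 kb of a domain border lay 4.10%, 2.46% and 2.80% of the unmarked distal sites in the wild type E17.5 lists, and 2.26%, 2.59% and 1.75% in the humanized lists, always with chromosome 13 left out. Eligible positions gave 1.82%, 1.04% and 1.47% in wild type and 1.10%, 1.41% and 0.723% in humanized lists. The sites were thus near borders in 2.66% ± 0.789 against 1.26% ± 0.385 (SD, n = 6 lists), higher in 6 of 6 lists (exact sign-flip permutation test over lists, two-sided, p = 0.03125, the smallest that 6 lists allow, and 0.03125 after adjustment over 15 comparisons). This p measures only the spread between H3K27me3 lists. Eligible positions were not restricted to sequence where reads map to 1 place, although the authors removed multi-mapping reads. They take in sequence with few CTCF sites, such as that of chromosome Y, with 88.5 Mb sequenced and 4 unmarked distal sites. How much of the difference goes with this was not tested.

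A part of this difference went with gene density. With eligible positions weighted to the gene density of the sites, their share near a border was 1.60% ± 0.480, and the sites still exceeded it in 6 of 6 lists, by 1.06 ± 0.363 percentage points (exact p = 0.03125) and by a ratio of 1.48 to 1.87. In a local comparison, the density was 27.1 ± 3.10 sites per eligible Mb within 5 kb of a border and 21.6 ± 0.281 at 20 to 100 kb outside one, a ratio of 1.09 to 1.39 that was above 1 in 6 of 6 lists (exact p = 0.03125). Both comparisons were added after the values were seen. The higher density was not confined to borders in every list. At 10 to 20 kb inside, it was 29.9 and 33.5 in wild type replicates 1 and 2 and 26.8 and 34.4 in humanized replicates 1 and 3. Each of these was above the density within 5 kb of a border in the same list. In wild type replicate 3 and humanized replicate 2 it was lower than there, at 19.8 and 20.5.

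**Figure D5:**
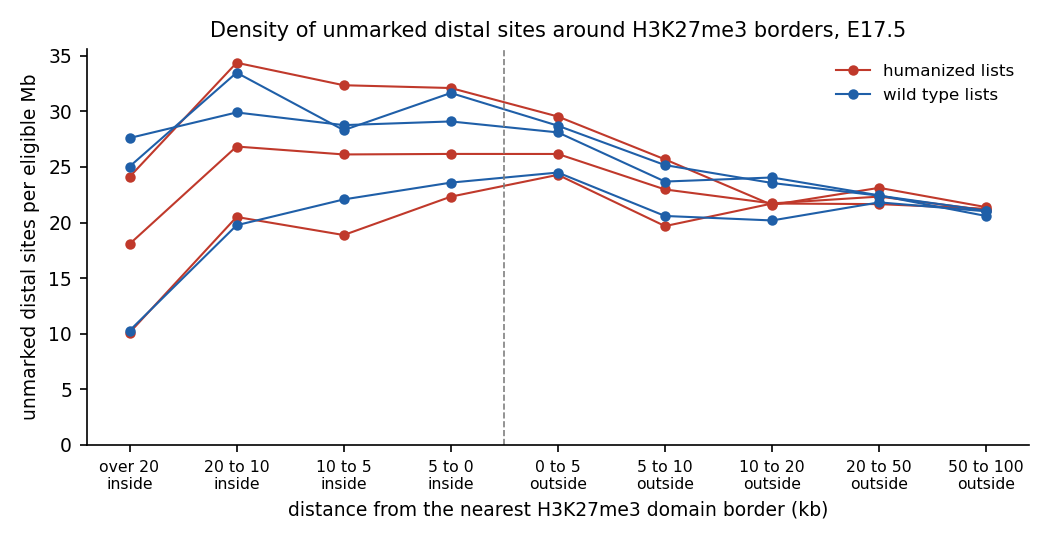
Unmarked distal sites per Mb of eligible genome by distance from the nearest H3K27me3 domain border (kb, inside the domain left of the dashed line and outside it right of the line) for each of the 6 E17.5 lists, chromosome 13 left out. All 6 lists ran close together at 20 to 100 kb outside and spread apart inside the domains. Every list was higher within 5 kb of the border than at 20 to 100 kb outside. At 10 to 20 kb inside, wild type replicates 1 and 2 and humanized replicates 1 and 3 were higher still.

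Distal H3K27ac sites and sites near gene starts were more often near a border or inside a domain than the unmarked distal sites. Distal sites with H3K27ac were near a border in 3.17% ± 0.847, which was higher in 6 of 6 lists. The difference, unmarked minus H3K27ac sites, was -0.515 ± 0.213 percentage points (exact p = 0.03125), and did not pass the threshold under every definition of peaks, domains and starts tried. Sites near gene starts were near a border in 5.35%. Inside a domain lay 2.72% ± 0.901 of the unmarked distal sites, 1.45% of eligible positions, 4.62% of distal H3K27ac sites and 7.59% of sites near gene starts (exact p = 0.03125 for each of the 3 differences, with 6 of 6 lists in 1 direction).

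On the 2 sides of a border the order of the classes differed. In the 5 kb outside lay 1.40% ± 0.398 of the unmarked distal sites and 1.25% ± 0.402 of the H3K27ac sites, the former higher in 6 of 6 lists. In the 5 kb inside lay 1.26% ± 0.392 and 1.92% ± 0.454, the former lower in 6 of 6 lists (exact p = 0.03125 for both). At E11.5 the unmarked distal sites were near a border in 1.53% ± 0.272 against 0.840% of eligible positions (SD, n = 4 lists, higher in 4 of 4, exact p = 0.125, the smallest that 4 lists allow). The excess over eligible positions was 1.40 percentage points at E17.5 and 0.686 at E11.5 (exact permutation test of the difference between days, p = 0.0143, 0.0571 after adjustment over 8 comparisons), so a difference between days did not pass the threshold.

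Seen from the domains, most borders had no such site. Domains present in at least 2 of the 3 wild type E17.5 lists numbered 1929, with a median length of 15.9 kb. Of their 3858 borders, 738 (19.1%) had an unmarked distal site within 5 kb, 696 had only a CTCF site of another class, and 1949 (50.5%) had no CTCF peak of any wild type list. An unmarked distal site was present at either border of 655 domains and at both borders of 83. Of the 841 sites near these borders, 442 lay outside and 399 inside. Where the core match was on 1 strand, it pointed into the domain at 269 of 529 sites (50.9%).

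How reproducible a border was depended on the list. Counted in single wild type lists, 413 sites were near a border in 3 of 3 lists, 356 in 2 and 872 in 1 only. From the lowest to the highest quartile of fold enrichment, 2.69%, 2.47%, 2.56% and 3.47% of sites were near a consensus border. The share thus did not rise steadily, and the highest quartile alone was above the lowest. With gene density the share rose, from 1.19% where no start lay within 500 kb to 6.95% at 40 or more starts.

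The longest domains with an unmarked distal site at a border covered homeobox and other developmental genes. The HoxB domain (242.7 kb, chr11:96034761-96277488, Hoxb1 to Hoxb13) had 1 such site 1.85 kb inside its left border, in an intron of Ttll6, with fold enrichments of 15.6, 13.98 and 26.9 in wild type and 20.3, 23.5 and 17.1 in humanized lists, and 5 sites deeper inside. The HoxA domain (192.4 kb, chr6:52118073-52310498) had 1 site 0.18 kb inside its right border, next to Evx1, with 7.005, 5.59 and 3.35 in wild type, and it was called in humanized replicates 1 and 3. The HoxD domain (142.6 kb, chr2:74469281-74611858) had 1 site 3.30 kb outside its left border, on the Evx2 side, with 5.16, 5.83 and 5.34 in wild type and a call in humanized replicate 1 only. The border sites of HoxA and HoxD were thus weak ones, below the median of all unmarked distal sites.

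Stronger sites stood at other domains. The domain over Dbx1, a homeobox gene of neural progenitors, and Htatip2 (150.5 kb, chr7:49263071-49413587) had a site with a perfect core 3.09 kb inside its left border, with 47.8, 30.6 and 44.0 in wild type and 44.8, 38.2 and 35.6 in humanized lists. The domain over Pax7, a paired box gene of midbrain and muscle precursors (110.2 kb, chr4:139480200-139590356), had a site 4.21 kb inside its right border with 54.1, 41.1 and 48.2 in wild type and 33.0, 40.2 and 40.2 in humanized lists. The domain over Pdx1 and Cdx2, genes of pancreas and intestine (80.4 kb, chr5:147187112-147267524), had one 1.02 kb outside its right border with 31.8, 31.3 and 33.1 in wild type and 27.5, 32.2 and 20.6 in humanized lists. With the exception of the 20.6, the values of these sites exceeded 21.2, the lower limit of the highest quartile of fold enrichment. The same right border of the Pdx1 domain had a second, weaker site 2.89 kb inside, with 12.3, 8.75 and 9.04 in wild type and 6.27, 5.73 and 7.79 in humanized lists.

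Further domains of this group covered Tbx5, a T-box gene of heart and forelimb (106.5 kb, 2 sites outside the left border), Ebf1 (98.0 kb, 1 site 0.18 kb inside), Neurog1, a proneural gene (78.9 kb, 3 sites), and a stretch beside Foxd1 with 0 gene starts (101.2 kb, 1 site). The 2 Tbx5 sites had fold enrichments of 16.7, 14.1 and 16.5 and of 10.4, 7.29 and 7.65 in wild type. The Ebf1 site had 7.38, 7.76 and 2.87. Outside the 10 longest, the site near Shh, which encodes the Sonic hedgehog signal, lay 15.9 kb from that gene's start and 2.51 kb outside a border in 3 of 3 wild type lists, with 32.4, 49.8 and 50.7 in wild type and 46.3, 43.8 and 49.2 in humanized lists. A weak site, chr5:28657999-28658354, was closer both to Shh (14.1 kb) and to the same border (0.709 kb outside, in 3 of 3 lists), with 6.76, 4.86 and 5.34 in wild type and 3.14, 3.95 and 4.13 in humanized lists.

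Developmental loci chosen by name varied widely in how many unmarked distal sites surrounded them. Within 500 kb, HoxB had 36, HoxC 29, HoxA 18 and HoxD 10, and the sites near a consensus border were 9, 3, 1 and 4. CTCF sites of other classes within 500 kb numbered 29, 40, 13 and 16 in the same order. The rule leaves out sites within 5 kb of protein-coding starts, those of Hox genes included. Between the outermost genes of these clusters lay 5 unmarked distal sites in HoxB and 1 in each of the others. The 1 in HoxA was in an intron of Hoxa3, 5.73 kb from the start of Hoxa4, with 14.01, 12.6 and 9.07 in wild type. Irx3 and Irx5 had 29 sites, Gbx2 26, and Dlx1 and Dlx2 24. The number was 22 around Six2 and Six3, 17 around Pax6, 18 around Otx2, 16 around Irx1 and Irx2 and around Dlk1 and Meg3, 10 around Pax3, 8 around Firre, and 7 around Epha4 and around Dlx5 and Dlx6. The number near a border was 0 around Dlx1 and Dlx2, Pax6, Sox9 and Kcnj2, Epha4, Pax3, H19 and Igf2, Dlk1 and Meg3, and Firre.

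Loci known for long-range control held sites of very different strength. Between Kcnj2 and Sox9, a gene desert with a domain boundary, lay 14 sites, of which the strongest (chr11:111426546-111427546) had 44.0, 31.7 and 39.1 in wild type and 36.9, 32.6 and 38.3 in humanized lists. Between Shh and Lmbr1, whose intron holds the limb enhancer of Shh, lay 5, the strongest at chr5:29497941-29498874 in an intron of Lmbr1 with 66.7, 31.2 and 60.7 in wild type and 44.6, 42.6 and 59.5 in humanized lists. Between Six2 and Six3 lay 4 sites, and the one nearest Six3, a forebrain homeobox gene, had 34.1, 21.0 and 23.0 in wild type. At the imprinted H19 and Igf2 locus 1 of 18 sites lay between the genes, with 6.87, 11.2 and 6.84, while the strongest of the 18 was in an intron of Th, with 77.3, 35.9 and 71.1.

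RNA from the same tissue and day was read on either side of the domain borders. The depth was 16414369 to 24272569 counts on genes per sample. The thalamic transcription factor gene Tcf7l2 was at 995 to 1301 CPM (counts scaled to a fixed library total) and the cortical gene Emx1 at 0 to 0.278, as a check of the dissection. Wild type replicate 1 stood apart in several marker genes, such as the neuronal tubulin gene Tubb3 at 2331 CPM against 683 to 980 in the other 7 samples. The neuronal gene Snap25 was instead lowest in that replicate, at 75.7 CPM against 139.8 to 274.9 in the others. At each consensus border the nearest protein-coding start inside the domain and the nearest outside within 100 kb were taken, and a gene was counted as transcribed at 1 CPM or more.

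At the 210 borders with an unmarked distal site and a gene on either side, 53.1% ± 2.71 of the inside genes and 71.0% ± 1.27 of the outside genes were transcribed (SD, n = 8 samples, 4 of each genotype). At 354 borders without a CTCF peak the shares were 52.8% ± 1.61 and 75% ± 0.623, and at 328 borders with only another CTCF class 60.7% ± 2.02 and 79.7% ± 1.70. The outside start was a median of 29.2 kb from borders with an unmarked distal site. It was 45.1 kb from borders without CTCF and 17.2 kb from those with another class. The step from inside to outside differed by -4.32 ± 1.90 percentage points between borders with an unmarked distal site and those without CTCF, and was smaller at the former in 8 of 8 samples (exact sign-flip permutation test over samples, p = 0.0078125, the smallest that 8 samples allow). It differed by -1.20 ± 2.14 from borders with another class (exact p = 0.1875). These p-values measure only the spread between RNA samples, which all read the same borders, and not the spread between borders. The direction of both differences depended on the limits chosen. With a limit of 0.5 CPM the first difference was 0.229 (exact p = 0.766), and with outside genes within 500 kb the differences were 2.10 and 2.56 (exact p = 0.0156 and 0.0078), so a larger or smaller step at these borders was not established. Without wild type replicate 1, which stood apart, the first difference was -4.16 (exact p = 0.0156). Without wild type RNA replicate 2 the difference from the other CTCF classes was -1.85 (exact p = 0.03125), past the threshold.

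Single borders illustrate the range, as wild type means in CPM (SD, n = 4). At the HoxD site, Evx2 inside was at 0.0978 ± 0.0733 and Lnpk outside, a gene of the endoplasmic reticulum, at 61.4 ± 27.5. The lens forkhead gene Foxe3 was at 0 and its neighbour Cmpk1, a nucleotide kinase gene, at 234 ± 58.9. Genes within domains were not always silent, since Otp, a hypothalamic homeobox gene, was at 42.1 ± 12.3 beside Tbca at 96.9 ± 32.1, and Ebf1 at 43.3 ± 9.83 beside Rnf145 at 197 ± 51.0. The opposite order was found at the border between Ntn1, which encodes the guidance cue netrin, at 44.9 ± 22.8 inside the domain and Pik3r5 at 0.940 ± 0.348 outside.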

How the data were processed

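ChIP-seq peak lists and RNA counts of wild type and hs754-humanized mouse diencephalon were analysed. Per the methods of the study and the submitters' processing notes, the authors mapped ChIP-seq reads with Bowtie2 2.4.2 to mm39, or to a humanized version of it, removed multi-mapping and duplicate reads with Sambamba, and ran MACS2 2.2.7.1 on every replicate separately. The settings behind the H3K27me3 lists, which have the broad form, are not given in the sources used here. Column 7 of the deposited lists is the fold enrichment over local background, and column 9 the −log10 q-value. The deposited RNA counts, from STAR 2.7.9a, are raw counts per gene. Lines that name no gene held 48.1 to 58.4% of RNA reads and were left out. The peak lists give no depth, so the read depth behind a peak is unknown, and only the number of peaks per CTCF list (54857 to 78661) is given. Input libraries were not analysed here.

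Gene starts came from GENCODE vM39 on GRCm39, and domains, motif matches and gene density were computed in Python 3.11.15 with numpy 2.4.6, pandas 2.3.3, scipy 1.17.1 and pysam 0.24.0. Where a list had several peaks in a region, the highest was used. Column 7 was compared between genotypes with limma 3.58.1 in R 4.3.3, without a pairing of replicates, and p-values were adjusted over all regions tested. Shares were compared by exact sign-flip permutation over lists or samples. The limma fit was tested on simulated data. Functions for merging, domains, distances, gaps, the motif search and the sign-flip test were checked on small constructed examples. Same-numbered CTCF replicates did not deviate together (correlations of 0.00543, -0.0068 and 0.01025), so the numbers were not taken as pairs. Replicates were separate litters. Domains needed 10 kb after joining gaps of 3 kb, a border site lay within 5 kb, and eligible positions were taken on a grid of 1000 bp. In every comparison with eligible positions, this grid was not restricted to sequence where reads map to 1 place.

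The sites, the loci and the marker lists were chosen with earlier results of these data known. Named sites were the 10 with the highest and the 5 with the lowest median column 7, those at the limits of the rule, those at the 10 longest domains, the 3 widest gaps, the densest cluster and developmental loci chosen by name, of which 1, like 1 marker gene, is not reported here. The borders between genes printed as examples, the gene Shh among the border sites and the next clusters after the densest were picked after their values were seen. Alternatives covered the choice of peaks, gene starts, domains, motif, expression limit and replicates.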

Additional observations from a re-analysis of the deposited data

Results flagged for a closer look

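In 66 groups of samples, 8 had a sample far from the others, all in marker genes of the E17.5 RNA samples used for the borders. Chance alone gives about 1 in 20 groups. Most concerned wild type replicate 1. It had Tubb3 at 2331 CPM, Rbfox3 at 130.3, Gbx2 at 46.2, Pecam1 at 56.9 and C1qa at 10, each far above the other wild type samples, and Lhx9 at 102.6, far below them. Wild type replicate 4 had the lowest Tcf7l2, at 995.5 CPM, and humanized replicate 1 the highest Rbfox3 of its group, at 78.88 CPM. Tubb3 and Rbfox3 mark neurons, Gbx2, Lhx9 and Tcf7l2 mark the thalamus, and Pecam1 and C1qa mark endothelium and microglia. Snap25, also a neuronal marker, was not flagged and went the other way. It was at 75.7 CPM in wild type replicate 1, against 181.1 to 274.9 in the other wild type samples. Without wild type replicate 1, the difference in the step of transcription between borders with an unmarked distal site and borders without CTCF was -4.16 percentage points, against -4.32 with it.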

How the results depend on the processing

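The fold enrichment of the unmarked distal sites (median 10.2 to 11.4, and 9.36 to 9.55 without 1 of the CTCF lists) and their number (23558 to 31507, and 30940 to 34148 without a list) kept within 1.5 times or 1 SD of the reported values under the alternatives run, and the limma fit called 0 regions in all 10 alternatives, the replicate block included (1131 sites with an unadjusted p under 0.05 with the block, against 1107). Because the rule set them, spacing and gene density moved with it. Median spacing was 42.2 kb over 10 kb from a start, 49.0 kb with the starts of all genes and 45.0 kb with all transcripts, and 32.3 to 35.4 kb without 1 of the CTCF lists; the mean number of starts within 500 kb was 10.3, 11.002 and 10.5, and 11.42 to 11.52 without a list. The ratio of gene density over eligible positions was 1.61, and 1.77 within 100 kb and 1.53 within 1000 kb. The core was found in 16.4% with 0 mismatches, 83.9% with 2 and 55.0% in 100 bp. The nearest other CTCF peak was 6.51 kb away when peaks of any wild type list counted, and 88.6% of sites were called in humanized lists at a −log10 q of at least 5. The share near a border kept its excess over eligible positions under all alternatives, from 0.737 to 8.60 percentage points. Its deficit to distal H3K27ac sites was -0.417 with CTCF peaks at a −log10 q of at least 5, -0.217 with the starts of all genes and -0.169 without joining of peaks (exact p = 0.0625 each), the cause was not tested. Leaving out 1 H3K27me3 list (smallest possible p 0.0625) or 1 CTCF list (exact p = 0.03125 in each), the differences were 1.22 to 1.48 near a border and 1.05 to 1.36 inside a domain against eligible positions, and -0.592 to -0.469 and -2.05 to -1.74 against H3K27ac sites. In the wild type lists alone with chromosome 13, where no p can be under 0.25, the 4 values were 1.67, 1.60, -0.508 and -2.20. The comparison of transcription across borders changed most. Against borders without CTCF it was -4.32, but 0.229 at 0.5 CPM, 2.10 with outside genes within 500 kb and 0.213 within 25 kb, and -3.37 in wild type samples alone (exact p = 0.125). Against borders with another CTCF class it was -1.20, but -1.88 at 5 CPM (exact p = 0.03125), -7.39 within 50 kb and -9.23 within 25 kb (exact p = 0.0078125 for both), and 2.56 within 500 kb. Without 1 RNA sample it was -4.77 to -4.02 and -1.85 to -0.894. The cause of these changes was not tested. The settings of 25 kb, of all transcripts and of weighted or local eligible positions were chosen after seeing the data. The read depth behind the peaks is unknown, so its limit on weak sites could not be measured.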
